A study of Mus musculus with 6 samples.

Results

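The 10 genes described here are immediate-early genes outside the AP-1 family, taken by name from a list of Egr1, Egr2, Nr4a1, Nr4a2, Nr4a3, Arc, Npas4, Ier2, Klf4 and Klf6. All 10 matched a gene identifier among the 53379 in each count table, and all 10 passed the filter on low counts. RNA was measured by RNA-seq in Min6, a mouse insulinoma line in use as a beta-cell model. The cells had received lentiCRISPR v2, a lentiviral vector for Cas9 and a guide RNA (gRNA), with a gRNA against JunD (3 libraries) or against the Rosa26 locus, the negative control (3 libraries). Both groups were at passage 28, were harvested on day 8 after transduction and had spent 30 hours in glucolipotoxic conditions, in which glucose and fatty acid are both raised. No unstressed and no untransduced library was analysed here, so the response of these genes to the stress itself is not part of the comparison. Whether replicates stem from separate transductions is not stated in the labels, so the p-values take in only the spread between these libraries, which may be technical. Neither the gRNA's position in Jund nor the share of edited cells is stated.

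Immediate-early genes are transcribed within minutes of a stimulus, without new protein synthesis, through factors already present in the cell. In excitable cells, the beta cell among them, membrane depolarization opens calcium channels, and calcium, cAMP and ERK signals then act on SRF and its ELK partners, CREB and MEF2 at the promoters. Most of the products are transcription factors, and their mRNAs and proteins are short-lived, so a steady-state level reflects recent signalling as well as decay. JunD, the targeted gene, encodes an AP-1 subunit that can bind AP-1 sites and, with ATF partners, CRE-type sites.

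Jund stood at 22.7, 25.1 and 27.2 CPM in JunD gRNA replicates 1 to 3, against 38.6, 34.5 and 30.6 CPM in Rosa26 gRNA replicates 1 to 3, so the groups did not overlap (CPM is a library's count for a gene scaled to its TMM-adjusted total). Jund did not pass with 6 libraries (log2 fold change -0.47 ± 0.11, SE, adjusted p = 0.417) and fell with 5 (-0.38 ± 0.077, adjusted p = 0.00773). Library totals ran from 41071566 to 50024931 counts. Rosa26 gRNA replicate 1 stood apart. The median absolute log2 distance of a gene from its mean in the remaining 5 libraries was 0.259 there and 0.0796 to 0.14 elsewhere. Across 17743 genes, which are not independent replicates, that distance, taken with its sign, correlated with GC content at a Spearman's rho of -0.537. The rho was 0.319, 0.279 and 0.448 in JunD gRNA replicates 1 to 3, and 0.114 and 0.022 in Rosa26 gRNA replicates 2 and 3. For these 5 libraries the mean compared against includes Rosa26 gRNA replicate 1. A GC difference between the groups thus may remain without that library. A list of 7 genes read as signs of RNA quality, such as mitochondrial rRNAs and Malat1, summed to 3314 to 3649 CPM in the JunD gRNA libraries and to 11070, 3821 and 4005 CPM in Rosa26 gRNA replicates 1 to 3. On the 5 libraries without this one, all 7 of these genes had a log2 fold change below 0. Of them 4 were called lower (Lars2 at -0.54, Neat1 at -0.15, mt-Rnr1 at -0.20 and mt-Rnr2 at -0.19), beside 1.4% of all genes. They thus moved with the gRNA in the same fit that called Klf6. After a correction of these 5 libraries for GC content and length, described below, Lars2 (adjusted p = 4.54e-06) and Rn7sk (0.0424) passed as lower. Neat1 (0.169), mt-Rnr1 (0.0835) and mt-Rnr2 (0.109) did not. The part of these genes in the Klf6 result was not tested. The differences of the 10 genes are given with all 6 libraries and with these 5. Beta-cell markers summed to 88590 to 96190 CPM in the JunD gRNA libraries and to 49660, 85360 and 90110 CPM in Rosa26 gRNA replicates 1 to 3, and all 10 of them were above 1 CPM in at least 1 library. With 6 libraries 0 of these 10 passed, and with 5 Pdx1 (0.37), Mafa (0.47), Nkx6-1 (0.21), Slc2a2 (0.29) and Ins2 (0.11) rose and Iapp fell (-0.11, all log2 fold changes). Over all genes 1.45% rose and 1.4% fell in that fit. After the GC and length correction Pdx1, Mafa, Nkx6-1 and Slc2a2 still passed, and Ins2 (adjusted p = 0.101) and Iapp (0.398) did not. Of 7 markers of other islet hormone cells, 5 were tested, and with 5 libraries Ppy, the pancreatic polypeptide gene, fell (-0.70, adjusted p = 1.45e-05). That list summed to 686 to 712 CPM in the JunD gRNA libraries and to 532, 714 and 733 CPM in Rosa26 gRNA replicates 1 to 3. The part of these shifts in the results on the 10 genes was not tested. Of markers of blood, vessel, stroma and duct, the macrophage gene Adgre1 had 0 counts in all libraries and the leukocyte gene Ptprc reached at most 0.0407 CPM. On the same list Cd68 stood at 2.19 to 3.95 CPM and Pecam1 at 1.1 to 2.0 CPM. That list of 10 summed to 66.8 to 70.5 CPM in JunD gRNA and 55.7 to 67.4 CPM in Rosa26 gRNA libraries, mostly from the keratin gene Krt19. Of 7 neuronal markers, which bear on Arc and Npas4, the neuron-specific splicing factor gene Rbfox3 was at most 0.385 CPM and Gfap at most 0.113 CPM. Others on the list were present in every library. Tubb3 stood at 52.33 to 68.46 CPM, Slc17a7 at 3.412 to 4.797 CPM and Gad1 at 0.5847 to 2.056 CPM. The list summed to 623 to 654 CPM in JunD gRNA and 600.0 to 640.1 CPM in Rosa26 gRNA libraries. Most of that sum came from Snap25 and Syp, which endocrine cells also use. In bulk RNA, fewer cells with a transcript and less of it per cell cannot be told apart.

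Little separated the groups in these 10 genes. With all 6 libraries 0 of the 10 passed the test, where 0 of 17767 genes passed, a background of 0.0% (edgeR quasi-likelihood, adjusted p under 0.05), and 2119 of the 17767 had an unadjusted p under 0.05, Klf6 alone among the 10. DESeq2 called 67 genes (0.377%) on the same libraries and 0 of the 10. Without Rosa26 gRNA replicate 1, Klf6 fell and the other 9 did not pass, against a background of 2.86% of 18296 genes called in either direction and 1.4% called lower. On those 5 libraries DESeq2 called 3.42% of genes (1.86% higher and 1.56% lower) and limma-voom 3.21%, and of the 10 each called Klf6, lower. These shares are of all 18296 genes, and DESeq2 gave Nr4a3 and Egr2 no adjusted p in that fit. The median log2 fold change of the 10 was -0.000075 with 6 libraries and -0.072 with 5, beside -0.0064 and -0.0030 over all genes tested. The CPM of the groups did not overlap for Nr4a2, Nr4a3 and Klf6, each lower with the JunD gRNA, where 24.8% of all tested genes had no overlap and 11.9% lay lower without overlap.

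**Figure D1:**
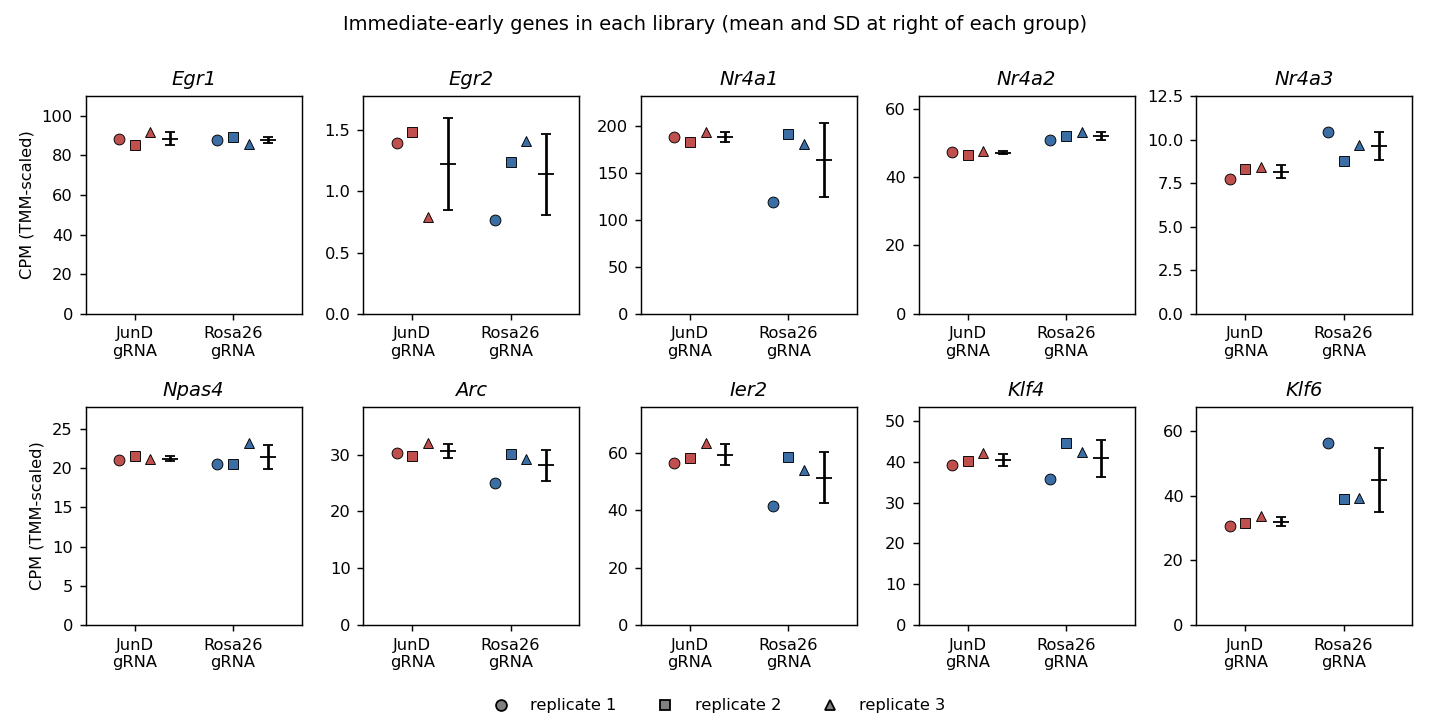
Levels of the 10 genes in each library, in TMM-scaled CPM from 0 on a separate vertical axis per gene, with 3 JunD gRNA libraries in red on the left and 3 Rosa26 gRNA libraries in blue on the right; black bars are the mean and SD. Rosa26 gRNA replicate 1 (circle) lies away from its group for Nr4a1 (119.5 CPM), Ier2 (41.6 CPM) and Klf6 (56.2 CPM), while Egr1 lies between 85.2 and 91.8 CPM in every library.

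Levels between genes were compared as CPM per kilobase of annotated exon. Nr4a1 was the highest of the 10, at 53.7 ± 1.60 in JunD gRNA and 46.8 ± 11.1 in Rosa26 gRNA libraries (SD, n = 3 each), and Ier2 followed at 39.0 ± 2.39 in JunD gRNA and 33.8 ± 5.76 in Rosa26 gRNA libraries. Egr1 stood at 19.7 ± 0.737 in JunD gRNA and 19.5 ± 0.354 in Rosa26 gRNA libraries. Among 13823 tested protein-coding genes these 3 lay at the 95th, 92.3rd and 83.1st percentile of the mean level over all libraries. Klf4, Nr4a2, Klf6 and Arc formed a middle group between 6.999 and 14.6 over all libraries, in which the ranges of neighbours overlapped. Npas4 (4.96 to 5.601) lay below them, Nr4a3 (1.29 to 1.74) lower still, and Egr2 (0.226 to 0.437) was last, at the 11.7th percentile. The ranges of Nr4a1 and Ier2 also overlapped across libraries, although Nr4a1 was the higher in each single library. The order from highest to lowest was the same in all 3 JunD gRNA libraries and in Rosa26 gRNA replicates 2 and 3. In Rosa26 gRNA replicate 1 alone, Klf6 moved above Nr4a2, Klf4 and Arc and Nr4a2 above Klf4.

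Promoter sequence is shown for 5 of the genes, because the targeted gene encodes a factor of AP-1 and CRE-type sites, and these are Klf6, the 3 NR4A genes and Npas4. RefSeq (GRCm38.p6) gave 11 windows, from 250 bases before to 50 bases after an annotated start, for 7 of the 10 genes. Arc, Egr1 and Ier2 had no window. The windows are at chr13:5861239-5861538 (plus strand) for Klf6, chr15:101266596-101266895 (plus) for Nr4a1, chr2:57123954-57124253 (minus) for Nr4a2, chr4:48045055-48045354 (plus) for Nr4a3 and chr19:4989922-4990221 (minus) for Npas4. Capitals mark a match, on either strand, to any of the motifs named after the sequences.
Klf6: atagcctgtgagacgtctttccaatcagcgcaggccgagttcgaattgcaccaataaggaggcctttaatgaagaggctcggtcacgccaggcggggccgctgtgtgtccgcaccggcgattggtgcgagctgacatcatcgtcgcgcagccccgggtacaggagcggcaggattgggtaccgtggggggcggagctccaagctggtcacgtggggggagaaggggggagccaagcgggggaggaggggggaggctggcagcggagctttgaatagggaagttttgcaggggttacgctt
Nr4a1: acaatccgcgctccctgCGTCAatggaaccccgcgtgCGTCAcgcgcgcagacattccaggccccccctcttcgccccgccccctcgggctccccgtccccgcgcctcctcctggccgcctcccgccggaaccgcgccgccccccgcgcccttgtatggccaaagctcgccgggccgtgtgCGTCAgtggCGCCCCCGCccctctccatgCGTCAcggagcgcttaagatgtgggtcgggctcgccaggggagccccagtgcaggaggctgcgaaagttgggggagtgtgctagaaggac
Nr4a2: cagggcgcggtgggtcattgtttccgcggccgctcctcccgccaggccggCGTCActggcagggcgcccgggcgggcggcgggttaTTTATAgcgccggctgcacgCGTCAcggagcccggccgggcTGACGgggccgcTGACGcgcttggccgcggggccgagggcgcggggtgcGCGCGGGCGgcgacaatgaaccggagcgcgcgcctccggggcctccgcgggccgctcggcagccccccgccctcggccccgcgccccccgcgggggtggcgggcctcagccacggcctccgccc
Nr4a3: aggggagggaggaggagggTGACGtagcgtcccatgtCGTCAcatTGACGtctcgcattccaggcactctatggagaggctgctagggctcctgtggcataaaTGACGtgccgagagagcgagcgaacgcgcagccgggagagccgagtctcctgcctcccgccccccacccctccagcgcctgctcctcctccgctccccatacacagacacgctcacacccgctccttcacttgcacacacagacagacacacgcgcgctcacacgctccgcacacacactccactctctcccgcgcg
Npas4: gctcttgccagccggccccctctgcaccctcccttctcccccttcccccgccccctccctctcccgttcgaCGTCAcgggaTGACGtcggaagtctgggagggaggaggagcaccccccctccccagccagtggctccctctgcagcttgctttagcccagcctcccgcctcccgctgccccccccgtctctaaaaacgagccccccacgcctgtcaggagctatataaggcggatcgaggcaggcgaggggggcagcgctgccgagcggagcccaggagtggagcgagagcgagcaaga
The motifs searched on both strands were the CRE (TGACGTCA), its core TGACG, AP-1 (TGANTCA), EGR (GCGNGGGCG), NBRE, the NR4A monomer site (AAAGGTCA), the CArG box bound by SRF, and the TATA box (TATAAA); every CRE match is also a match to the core. The core was present in 6 of the 7 genes, all but Klf6, against 23.0% of 27025 genes with a window. Nr4a1, Nr4a2 and Nr4a3 held 4 copies each, Npas4 held 2, Klf4 held 1, and 3 overlapping Egr2 windows held 2 each. The number of copies was not compared with that in other genes. A whole CRE, an AP-1 motif or an NBRE was found in 0 of the 7 genes, where 2.03%, 8.97% and 1.7% of all genes have one. EGR matches lay in Klf4, Nr4a1 and Nr4a2 (6.27% of all genes), a CArG box in Egr2 (1.81%) and a TATA box in Nr4a2 (15.7%). Of the 5 Egr2 windows, 3 overlap and share their sites. These matches describe letters in windows and not binding, and no match says only that the letters are not in that window.

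**Figure D2:**
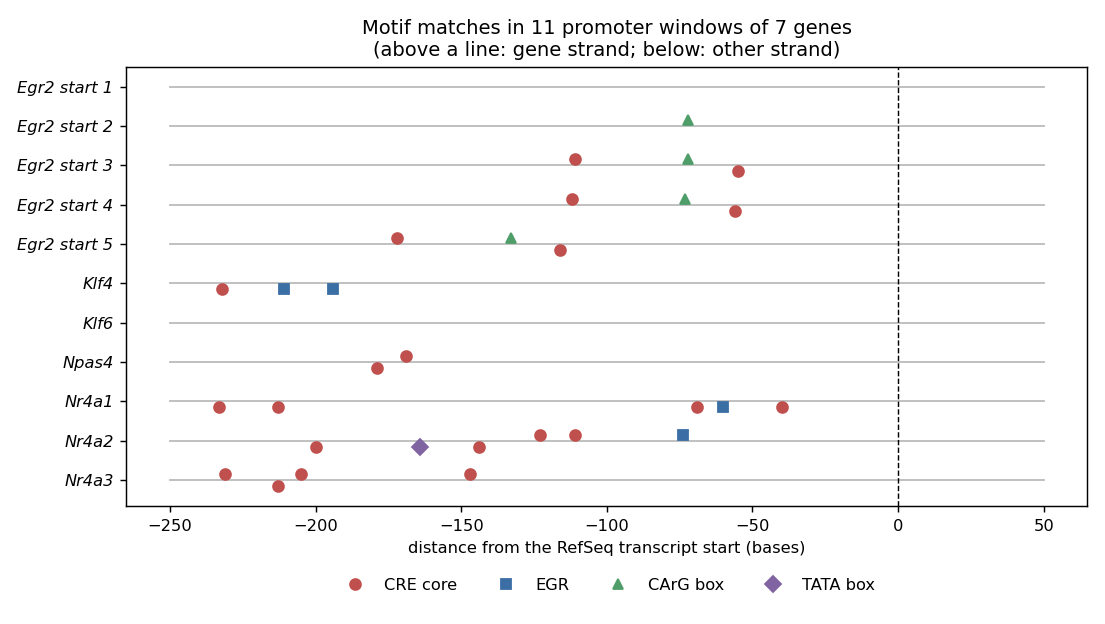
Positions of motif matches in the 11 RefSeq promoter windows of 7 genes, in bases from the transcript start (dashed line), with matches on the gene's strand drawn above each line and those on the other strand below it. CRE cores (red) recur in the NR4A genes, Npas4 and Egr2, with 1 in Klf4, and the Klf6 window and Egr2 start 1 hold no match.

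The NR4A genes encode orphan nuclear receptors that bind DNA without a known classical hormone and are induced by glucose, cAMP and calcium in beta cells. Nr4a1 (Nur77, chromosome 15 from 101254269 to 101274795, plus strand) had 7824, 7506 and 9528 counts, or 188.5, 182.9 and 194.1 CPM, in JunD gRNA replicates 1 to 3, against 5289, 9594 and 8634 counts, or 119.5, 191.4 and 181.7 CPM, in Rosa26 gRNA replicates 1 to 3. Only Rosa26 gRNA replicate 1 was low, and the other 5 libraries overlapped. The log2 fold change was 0.20 ± 0.15 (SE) with 6 libraries (adjusted p = 0.541) and 0.014 ± 0.043 with 5 (adjusted p = 0.925), where the 95% interval of the ratio ran from 0.949 to 1.07. Nr4a2 (Nurr1, chromosome 2) stood at 47.4, 46.6 and 47.5 CPM in JunD gRNA libraries, against 50.7, 51.9 and 53.2 CPM in Rosa26 gRNA libraries. Every JunD gRNA library was lower than every Rosa26 gRNA library, with SDs of 0.507 and 1.24 CPM about means of 47.1 and 51.9 CPM (n = 3 each). Its log2 fold change was -0.14 ± 0.068 with 6 libraries and -0.16 ± 0.055 with 5, and neither passed (adjusted p = 0.428 and 0.133). The 95% interval of the ratio on 5 libraries was 0.829 to 0.97. Nr4a3 (Nor1, chromosome 4) stood at 7.73, 8.31 and 8.45 CPM in JunD gRNA libraries, against 10.4, 8.78 and 9.68 CPM in Rosa26 gRNA libraries. Again the groups did not overlap, and the gap between the highest JunD gRNA and the lowest Rosa26 gRNA library was small. The log2 fold change was -0.24 ± 0.11 with 6 libraries (adjusted p = 0.419) and -0.18 ± 0.11 with 5 (0.465). The sign of Nr4a2 and Nr4a3 was negative in all 27 settings run. These settings reuse the same 6 libraries, and groups without overlap keep their sign when libraries are left out. The constant sign thus largely repeats the lack of overlap.

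The KLF genes encode zinc finger factors that bind GC-rich promoter elements. Klf6, a widely expressed member, has 5 annotated exon blocks on chromosome 13 from 5861482 to 5870394, plus strand. It had 1276, 1293 and 1649 counts, or 30.7, 31.5 and 33.6 CPM, in JunD gRNA replicates 1 to 3, against 2487, 1955 and 1860 counts, or 56.2, 39.0 and 39.1 CPM, in Rosa26 gRNA replicates 1 to 3. The groups did not overlap, and Rosa26 gRNA replicate 1 was far above the other 2 libraries of its group. With 6 libraries the log2 fold change was -0.49 ± 0.14 (SE), which did not pass (adjusted p = 0.417). Without Rosa26 gRNA replicate 1 Klf6 fell, by 0.29 ± 0.064 on the log2 scale (adjusted p = 0.0141), a ratio of 0.818 with a 95% interval of 0.746 to 0.896. Without that library and Rosa26 gRNA replicate 2 the change was -0.29, and without it and replicate 3 it was -0.29. Replicates 2 and 3 lay at 39.0 and 39.1 CPM, so leaving either out could hardly move the size. Klf6 was not called in these fits, each with 1 control library and so no spread between controls. Klf4, which keeps epithelial cells differentiated and serves in reprogramming, stood at 39.2, 40.1 and 42.1 CPM in JunD gRNA libraries, against 35.8, 44.5 and 42.3 CPM in Rosa26 gRNA libraries. Rosa26 gRNA replicate 1 was the lowest of all 6, and the other Rosa26 gRNA libraries lay just above the JunD gRNA ones. The log2 fold change was -0.015 ± 0.095 with 6 libraries (adjusted p = 0.952) and -0.10 ± 0.061 with 5 (0.441).

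The EGR genes encode zinc finger factors of the SRF and ERK route, and Egr1 is a standard marker of glucose and calcium signalling in beta cells. Egr1 had 3654, 3496 and 4505 counts, or 88.0, 85.2 and 91.8 CPM, in JunD gRNA libraries, against 3880, 4464 and 4083 counts, or 87.7, 89.1 and 85.9 CPM, in Rosa26 gRNA libraries. The groups lay on top of each other, Rosa26 gRNA replicate 1 included. The log2 fold change was 0.013 ± 0.066 with 6 libraries (adjusted p = 0.938), and the 95% interval of the ratio ran from 0.91 to 1.12. With 5 libraries it was 0.013 ± 0.050 (adjusted p = 0.942), with an interval of 0.94 to 1.08. Egr2, known for its role in myelinating glia, was the lowest of the 10. It had 58, 61 and 39 counts in JunD gRNA libraries, against 34, 62 and 67 counts in Rosa26 gRNA libraries, which is 0.794 to 1.49 CPM and 0.768 to 1.41 CPM. The log2 fold change was 0.097 ± 0.34 with 6 libraries (adjusted p = 0.904), and its interval of the ratio, 0.63 to 1.82, was the widest of the 10. With 5 libraries the sign turned, to -0.12 ± 0.31 (adjusted p = 0.906), with an interval of 0.589 to 1.44. How far counting error and how far the spread between libraries set this width was not tested.

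Npas4 encodes a bHLH-PAS factor induced by calcium entry in neurons and beta cells. It had 872, 883 and 1038 counts, or 21, 21.5 and 21.1 CPM, in JunD gRNA libraries, against 909, 1028 and 1101 counts, or 20.5, 20.5 and 23.2 CPM, in Rosa26 gRNA libraries. The 3 JunD gRNA libraries lay within the Rosa26 gRNA range (log2 fold change -0.013 ± 0.085 with 6 libraries, adjusted p = 0.954, and -0.042 with 5, adjusted p = 0.859). Arc, a gene of activity-regulated receptor trafficking at synapses, stood at 30.2, 29.7 and 32.0 CPM in JunD gRNA libraries, against 25.0, 30.1 and 29.2 CPM in Rosa26 gRNA libraries. Its log2 fold change was 0.12 ± 0.093 with 6 libraries (adjusted p = 0.534) and 0.047 ± 0.067 with 5 (0.807). Ier2, a short gene of 1 annotated exon block whose product is a nuclear protein, stood at 56.3, 58.3 and 63.4 CPM in JunD gRNA libraries, against 41.6, 58.5 and 54.1 CPM in Rosa26 gRNA libraries. Rosa26 gRNA replicate 1 was the lowest and JunD gRNA replicate 3 the highest, and the other 4 lay close together. The log2 fold change was 0.21 ± 0.12 with 6 libraries (adjusted p = 0.454) and 0.076 ± 0.059 with 5 (0.589). No annotated gene in the tables overlapped the body of any of the 10 (0 overlaps), so antisense reads of a listed neighbour do not enter these counts.

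**Figure D3:**
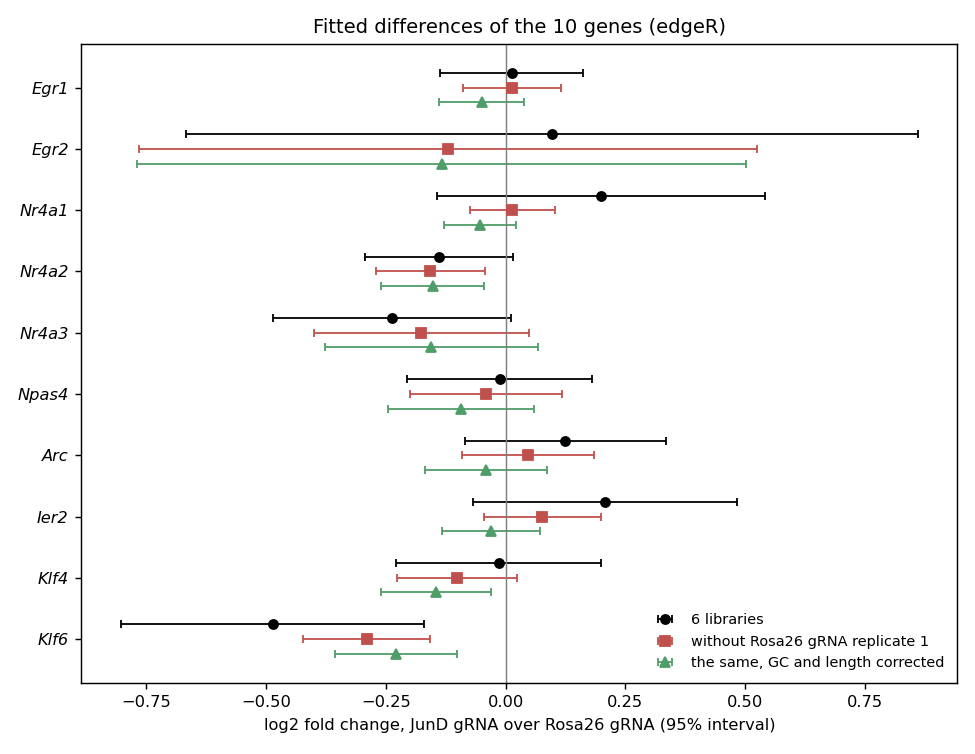
Log2 fold change of JunD gRNA over Rosa26 gRNA for each of the 10 genes with its 95% interval, for the edgeR fit on 6 libraries (black), on 5 libraries (red), and on 5 libraries corrected for GC and length (green). Klf6 lies below 0 in all 3 fits, at -0.49, -0.29 and -0.23, and the corrected values of all 10 genes lie below 0.

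In these genes Rosa26 gRNA replicate 1 tended to lie lower where GC content was higher, with exceptions. Relative to Rosa26 gRNA replicates 2 and 3, its log2 deviation was 0.52 for Klf6, whose longest transcript has the lowest GC content of the 10 (42.4%), and -0.43 for Ier2, which has the highest (60.9%). It was -0.64 for Nr4a1 (57.0%), -0.24 for Arc (59.0%), 0.0031 for Egr1 (57.3%), and -0.52 for Egr2 (51.4%), the gene with the fewest counts. Over the 10 genes the Pearson correlation of deviation with GC content was -0.698 and Spearman's -0.503, and over 17743 tested genes they were -0.442 and -0.495, both within the same libraries and given as a description. For Klf6 the trend fitted on GC content and length over all genes gave 0.268 of that 0.52. It gave -0.284 of the -0.64 for Nr4a1 and -0.093 of the -0.52 for Egr2. A correction of each library for this trend was also run on the other 5 libraries. All 10 log2 fold changes were then below 0, with a median of -0.114, beside a median of -0.0013 over all genes tested, of which 50.4% were below 0. On all 6 libraries the same correction left 7 below 0 and Egr2 (0.058), Nr4a1 (0.060) and Ier2 (0.0067) above it. On the 5 libraries Klf6 was -0.23 ± 0.062 (adjusted p = 0.0388), and the 95% intervals of Nr4a2 (-0.15) and Klf4 (-0.15) lay below 0 without passing (adjusted p = 0.125 and 0.200). With the correction on all 6 libraries, Klf6 was -0.32 ± 0.084 (adjusted p = 0.273). The part of GC content in the Klf6 difference was not tested beyond this correction.

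**Figure D4:**
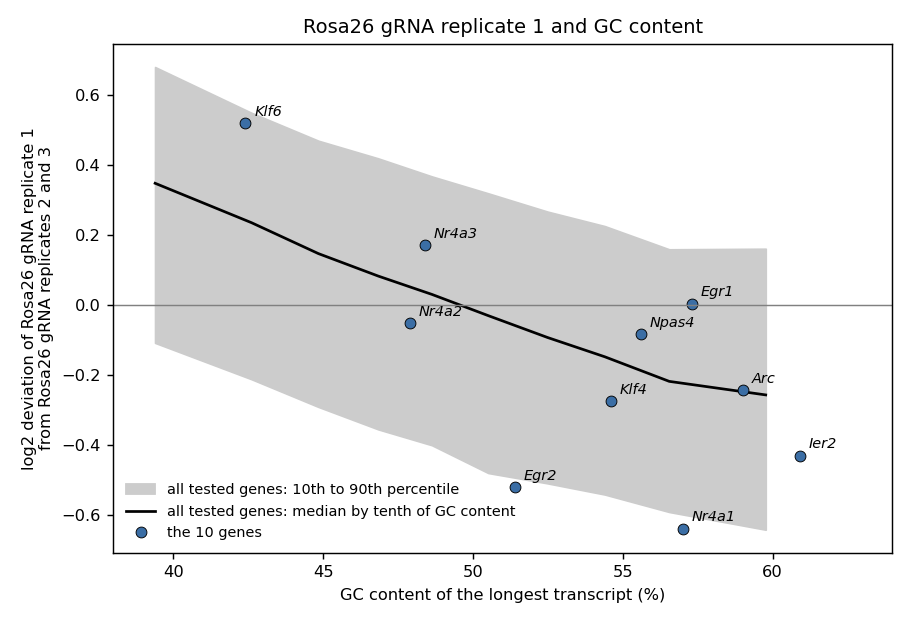
Log2 deviation of Rosa26 gRNA replicate 1 from the mean of Rosa26 gRNA replicates 2 and 3 (vertical) against GC content of the longest transcript in percent (horizontal), with the 10 genes as points and all tested genes as a median line and a grey band from the 10th to the 90th percentile. The 10 genes scatter about the falling line, with Klf6 (0.52) at the low-GC end and Nr4a1 (-0.64) and Egr2 (-0.52) just under the lower edge of the band.

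The levels of the 10 genes did not move as one across libraries. Over the 45 pairs, the median Pearson correlation of log2 CPM after removal of the group means was 0.274 with 6 libraries, with 29 pairs positive and 16 negative. These correlations share 6 libraries and carry the position of Rosa26 gRNA replicate 1, and are given as a description. The value was 0.983 for Arc and Ier2 and 0.965 for Nr4a1 and Arc, while Klf6 ran against Nr4a1 (-0.949) and Arc (-0.834). Without Rosa26 gRNA replicate 1 the correlation of Klf6 with Nr4a1 was 0.498 and with Arc 0.817, so the opposite course of Klf6 rested on that library. A search among 13037 genes with a mean of at least 2 CPM kept the group means. Its correlations thus include the difference between the groups and the position of Rosa26 gRNA replicate 1. Those most like Klf6 over 6 libraries were Golim4, Dgke and Nipa1 (Pearson's r = 0.999, 0.997 and 0.996). On 5 libraries Nipa1 fell, by 0.40 on the log2 scale (adjusted p = 0.0157), and Golim4 (0.29) and Dgke (0.135) did not pass. All 3 were picked for following Klf6 in these same libraries, so they are no separate evidence on its fall. Those most like Nr4a1 were Fpgs, Pcyt2 and Rps13 (0.9999, 0.999 and 0.999), and those most like Nr4a2 were Rbm3, Pbxip1 and Adora2a (0.996, 0.990 and 0.985). The closest to Nr4a3 was Nrxn3 (0.997), to Arc Mrps28 (0.998), to Ier2 Ppan (0.999), to Klf4 B230118H07Rik (0.997), to Npas4 Snai2 (0.985), to Egr1 Fbxo17 (0.967) and to Egr2 Flrt3 (0.984). The third closest to Nr4a3 was Rgs2 (0.988), itself on the list of other immediate-early genes.

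Of 35 other immediate-early genes, 33 were tested, and without Rosa26 gRNA replicate 1 Gem and Arid5a fell, 0 rose and 31 did not pass, beside 1.4% of all genes that fell. Gem, a small GTPase that restrains voltage-gated calcium channels, stood at 18.2, 18.7 and 18.5 CPM in JunD gRNA libraries, against 26.7, 25.4 and 23.4 CPM in Rosa26 gRNA libraries, a log2 fold change of -0.44 ± 0.085 with 6 libraries (adjusted p = 0.417) and -0.40 ± 0.075 with 5 (0.00402). Arid5a, which encodes an RNA-binding protein that stabilizes inflammatory mRNAs, stood at 17.1, 15.4 and 15.9 CPM in JunD gRNA libraries, against 17.2, 18.9 and 21.3 CPM in Rosa26 gRNA libraries (-0.25 with 6 libraries, adjusted p = 0.417, and -0.32 ± 0.083 with 5, adjusted p = 0.0402). The groups did not overlap for either gene, narrowly so for Arid5a. After the GC and length correction on 5 libraries, which called 1.47% of all genes lower, 4 of the list were called lower and 0 higher. Gem (-0.38, adjusted p = 0.00240) and Arid5a (-0.35, adjusted p = 0.0131) were joined by Nptx2 (-0.20, adjusted p = 0.000756) and Ier3 (-0.33, adjusted p = 0.0131), both named after their values were seen. The list had a median log2 fold change of -0.051 with 5 libraries, with 12 members above 0 and 21 below. Among relatives of the 10, named here with their values seen, Egr3 was at or below 0.168 CPM and Klf2 at or below 0.53 CPM in every library, and Egr4 stood at 1.80 to 2.59 CPM in JunD gRNA and 0.859 to 2.24 CPM in Rosa26 gRNA libraries.

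Of the 31 genes of the calcium, cAMP and ERK relay, 31 were tested with 5 libraries, where 5 rose, 0 fell and 26 did not pass, beside 1.45% of all genes that rose. With 6 libraries 0 of 30 passed, and the 5 genes had log2 fold changes of 0.17 to 0.33 (adjusted p = 0.417 each). Camkk2, a calmodulin-dependent kinase kinase, stood at 51.6, 50.9 and 51.7 CPM in JunD gRNA libraries, against 38.1, 44.5 and 40.7 CPM in Rosa26 gRNA libraries, and rose by 0.27 ± 0.059 (adjusted p = 0.0127). Calm3, a calmodulin gene, rose by 0.17 ± 0.038, Map2k2, which encodes the ERK kinase MEK2, by 0.19 ± 0.046, and Camk2b by 0.17 ± 0.045. The fifth, Prkaca, the catalytic subunit of protein kinase A, was named after its value was seen (0.16 ± 0.044, adjusted p = 0.0443). After the GC and length correction on 5 libraries Camkk2 passed (0.26, adjusted p = 0.00627). The other 4 did not, at a log2 fold change of 0.14 for Camk2b (adjusted p = 0.0539), 0.12 for Prkaca (0.116), 0.092 for Calm3 (0.140) and 0.097 for Map2k2 (0.218).

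The transcription factors listed as upstream of immediate-early genes showed no call, and their binding was not measured. Of 21 upstream transcription factors 0 passed with 5 or 6 libraries, and their median log2 fold changes were 0.0021 and 0.065. Srf, named after its value was seen, stood at 59.2, 58.8 and 66.8 CPM in JunD gRNA libraries, against 45.2, 54.2 and 54.6 CPM in Rosa26 gRNA libraries, without overlap (log2 fold change 0.26 with 6 libraries, adjusted p = 0.417, and 0.18 with 5, adjusted p = 0.105). Of 9 tested partners and corepressors 0 passed, the nearest being Nab2, an EGR corepressor, at 23.1, 24.9 and 24.4 CPM in JunD gRNA against 15.6, 20.9 and 19.2 CPM in Rosa26 gRNA libraries (0.38 with 6 libraries, adjusted p = 0.417, and 0.27 with 5, adjusted p = 0.0575). After the GC and length correction on 5 libraries Srf was 0.050 (adjusted p = 0.74) and Nab2 0.17 (0.285). Of 15 tested KLF and SP relatives and of 13 factors of AU-rich mRNA decay 0 passed in either fit. In the AP-1 family Atf3, a stress-induced ATF factor, stood at 42.1, 43.8 and 45.0 CPM in JunD gRNA and 53.3, 60.8 and 55.4 CPM in Rosa26 gRNA libraries, did not pass with 6 libraries (-0.37, adjusted p = 0.417) and fell with 5 (-0.41, adjusted p = 2.00e-04). Fos stood at 48.1, 49.6 and 51.7 CPM in JunD gRNA and 41.7, 47.5 and 46.2 CPM in Rosa26 gRNA libraries and did not pass (0.14 with 6, adjusted p = 0.446, and 0.087 with 5, adjusted p = 0.507). Jun (-0.014, adjusted p = 0.95), Junb (0.086, 0.549) and Fosb (-0.083, 0.711) did not pass with 5 libraries either. Of 12 AP-1 genes tested in that fit, Jund not among them, 1 was called lower and 0 higher, beside 1.4% of all genes called lower.

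**Figure D5:**
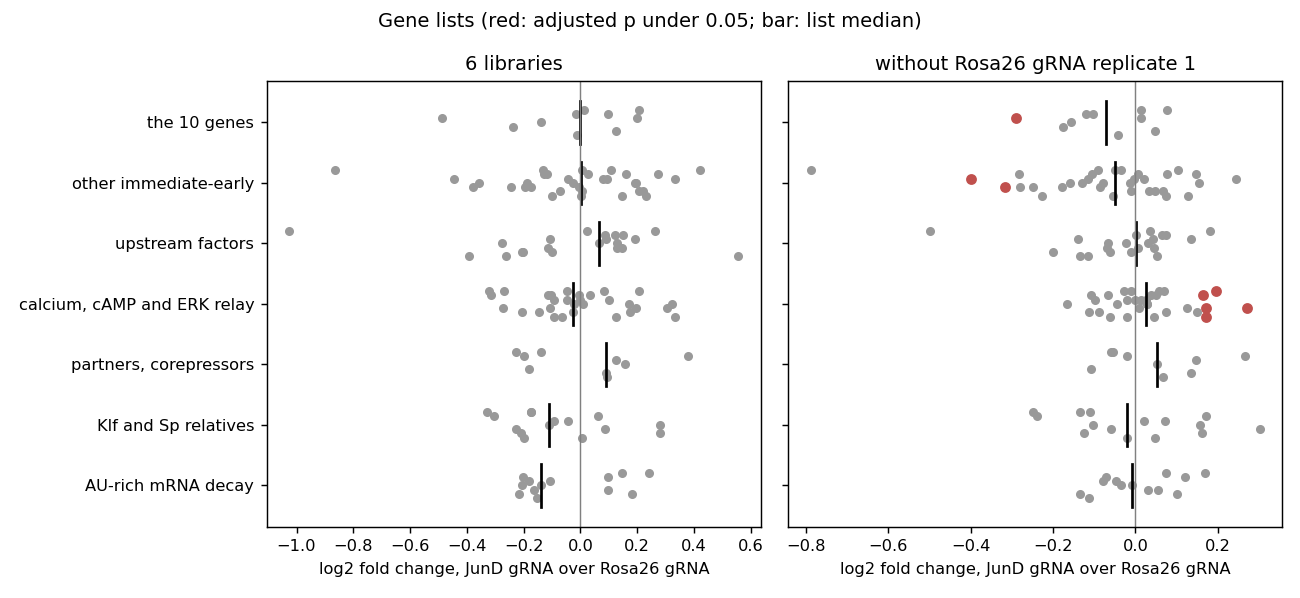
Log2 fold change of JunD gRNA over Rosa26 gRNA for each tested gene of 7 lists, with 6 libraries on the left and without Rosa26 gRNA replicate 1 on the right; red points have an adjusted p under 0.05 and black bars are list medians. On the left no point is red, and on the right Klf6, Gem and Arid5a lie left of 0 and 5 relay genes lie right of it.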

How the data were processed

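Raw counts were deposited by the authors in 1 table per library, with TopHat2, featureCounts and mm10 named per the submitters' processing notes. Their versions, annotation release, strand setting and handling of multi-mapped reads: not given in the sources used here. Symbols were matched without the identifier's version for 53274 of 53379 genes. Gene positions, exon lengths and the GC content of the longest transcript were read from GENCODE M21 on GRCm38, the assembly of mm10.

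JunD gRNA was compared with Rosa26 gRNA (3 libraries each) over all genes in edgeR 4.0.16 (R 4.3.3) with TMM, filterByExpr, a quasi-likelihood fit on group, and 2-sided Benjamini-Hochberg adjusted p at 0.05. SEs were derived from the F statistic, and intervals are 95%. DESeq2 1.42.0 and limma 3.58.1 were alternatives. The GC and length correction used splines with 5 degrees of freedom per library. Log2 deviations used CPM plus 0.5. Intervals cover the spread between libraries. Between any pair of libraries the chi-square over its degrees of freedom was at least 3.27, above sampling noise. The procedure was also run on simulated counts. These had the same dispersion for all genes, no library standing apart and no GC trend, so that run does not bear on those features here.

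The members, lists, fit on 5 libraries and rule for named genes (the 10, Jund, AP-1 members, up to 4 called genes per list, the 3 most correlated genes per member) were chosen with earlier results of these data known.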

Additional observations from a re-analysis of the deposited data

How the results depend on the processing

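Klf6, Nr4a2 and Nr4a3 kept a negative sign in every setting run, Klf6 from -0.58 to -0.23 and adjusted p from 0.000886 to 0.774. These are the genes whose groups did not overlap, so leaving libraries out could hardly turn their sign. The constant sign is therefore no separate evidence. With 6 libraries the count of the 10 genes called was 0 and became 1, Klf6, without a count filter (adjusted p = 0.0407) and with limma-voom sample weights (0.0177), a setting chosen after the data were seen, as were the further correction settings and second left-out libraries. The count over all genes, 0, became 67 with DESeq2, 86 without a count filter, 293 with sample weights and 17 after the GC and length correction, and ran from 0 to 523 as single libraries were left out, with 523 without Rosa26 gRNA replicate 1 and 0 without any other. The count among the 10 then ran from 0 to 1. On 5 libraries, leaving out 1 more gave 46 to 672 genes and 0 to 1 of the 10; it was 0 without Rosa26 gRNA replicate 2 (51 genes) or 3 (46 genes), where 1 control library remains and is assumed to vary like the other group. Klf6 passed with DESeq2 (0.00438) and limma-voom (0.0110) on 5 libraries, and after the correction with DESeq2 size factors (0.0405) or library totals (0.0345).

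Some signs turned, for estimates near 0 and for others, such as Egr2 and Nr4a1, over a wider range. There was no call on either side, and the cause was not tested. Egr1 was -0.0037 with library totals, -0.11 after the correction on 6 libraries, and -0.050, -0.048 and -0.055 after it on 5 (TMM, DESeq2 factors, totals). On the same 3, Nr4a1 was -0.053, -0.051 and -0.058, Arc -0.041, -0.039 and -0.046, and Ier2 -0.031, -0.029 and -0.036; Arc was -0.047 after the correction on 6. Egr2 was -0.038 with sample weights. With single libraries left out of 6 and of 5, Egr1 ran from -0.016 to 0.041 and -0.016 to 0.047, Egr2 from -0.12 to 0.34 and -0.28 to 0.12, Npas4 from -0.042 to 0.049 and -0.12 to 0.048, Nr4a1 from 0.014 to 0.32 and -0.023 to 0.060, and Klf4 from -0.10 to 0.052 and -0.14 to -0.058.

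The replicate number did not pair the samples (correlations of deviations of 0.0929, -0.0678 and 0.123 for numbers 1 to 3, and JunD gRNA replicates 2 and 3 correlated best with another number). With the replicate block 0 genes were called, and Klf6 was -0.47 (adjusted p = 0.319). Mean levels of the 10 moved by less than 1 SD with library totals. Without Rosa26 gRNA replicate 1 the Rosa26 gRNA mean was 39.1 CPM for Klf6 (44.8 with it), 187 for Nr4a1 (164) and 1.32 for Egr2 (1.14). Egr2 had the fewest counts, 34 to 67.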
